A study of Homo sapiens with 16 samples.

Results

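MYCN and 4 genes beside it on the distal short arm of chromosome 2 (MYCNOS, DDX1, NBAS and FAM49A) were followed by RNA sequencing in LAN-1 and Kelly, human neuroblastoma cell lines in which the MYCN region is amplified. The 5 genes were taken by symbol from a table of whole-read counts for 25728 gene symbols, and all 5 were among the 11863 genes tested. Each line was given the EZH2 inhibitor GSK126 at 2 uM, or DMSO as its vehicle, for 5 or 2 days, which made 8 groups of 2 libraries: GSK126 at day 5 and at day 2 and DMSO at day 5 and at day 2, in LAN-1 and in Kelly. EZH2 is the enzyme of the PRC2 complex that places the repressive mark H3K27me3. The labels name no genetic change other than the line, each line is 1 cell line, so a difference between the lines is one between these lines only, and nothing says that libraries of a group came from separate cultures, so p-values measure only the spread between these samples, which may be technical.

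MYCN encodes a transcription factor that binds DNA as a pair with MAX and promotes growth and ribosome production in developing sympathetic neurons. In part of neuroblastomas the segment that carries MYCN is present in many copies, and how far the copied segment reaches differs between tumours, so that neighbouring genes may or may not lie on it. DDX1, an RNA helicase that takes part in tRNA splicing, and NBAS, a subunit of a complex that tethers transport vesicles at the endoplasmic reticulum, lie between MYCN and the end of the short arm. FAM49A, annotated as CYRIA, binds the small GTPase RAC1 and lies on the other side of MYCN. MYCNOS is a gene on the opposite strand that overlaps the start of MYCN. Only RNA was measured, so the levels below say which neighbours stood high, not how many copies of their DNA a line carried.

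On GRCh37, MYCN lay on the plus strand at chr2:16080672-16087129 and MYCNOS on the minus strand at chr2:16058473-16082371. NBAS (chr2:15307040-15701464, minus strand) and DDX1 (chr2:15731302-15774470, plus strand) started at -379.2 and -349.4 kb from the MYCN start, where a minus sign points to the end of the short arm. FAM49A (chr2:16730727-16847599, minus strand) started 766.9 kb after it. The exons of MYCN and MYCNOS shared 98 bases, and these are shown because a read from them cannot be given to either gene unless its strand is used, and the strand setting of the counting is not given in the sources used here. They lay at chr2:16082274-16082371, and the plus strand of GRCh37 read as follows.

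Shared exon bases: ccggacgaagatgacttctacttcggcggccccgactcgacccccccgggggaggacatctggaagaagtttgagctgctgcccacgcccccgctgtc

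The exons of MYCNOS sum to 5170 bases, of which 632 lay inside the span of the MYCN gene, and those of MYCN to 2755 bases. The share of length does not give the share of counts. MYCNOS had only 1.66 to 2.74 counts per 100 MYCN counts in LAN-1 and 2.87 to 3.94 in Kelly. A small share of MYCN reads could thus be a large share of MYCNOS counts. Counts that fall in those bases could belong to either gene, and reads there could also have been left out of both. The handling of shared reads is not given in the sources used here. MYCNOS values below are therefore uncertain by an amount that was not measured.

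The promoters of MYCN and DDX1 are shown because these genes carried the highest levels of the 5. They run from 250 bases before to 50 after the start, in RefSeq's GRCh38.p14, at chr2:15940300-15940599 and chr2:15591618-15591917, both on the plus strand. This start comes from another annotation than the gene starts placed above and need not be the same site. Capitals mark a match to TTTGGCGC, a form of the E2F site.

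MYCN promoter: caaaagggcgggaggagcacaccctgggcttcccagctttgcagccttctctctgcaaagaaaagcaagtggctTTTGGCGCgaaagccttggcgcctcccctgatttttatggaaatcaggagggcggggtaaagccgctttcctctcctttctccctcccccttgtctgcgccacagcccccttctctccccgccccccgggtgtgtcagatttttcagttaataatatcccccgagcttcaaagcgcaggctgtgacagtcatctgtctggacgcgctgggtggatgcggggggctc

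DDX1 promoter: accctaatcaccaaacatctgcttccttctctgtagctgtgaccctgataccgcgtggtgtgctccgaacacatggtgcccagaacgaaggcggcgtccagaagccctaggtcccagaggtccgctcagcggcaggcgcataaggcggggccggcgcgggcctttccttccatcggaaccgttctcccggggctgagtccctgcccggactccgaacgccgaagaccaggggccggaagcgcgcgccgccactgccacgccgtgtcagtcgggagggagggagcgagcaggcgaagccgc

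Both strands were searched for TTTGGCGC and for CACGTG, the E-box that MYC proteins bind, which reads the same on either strand and does not overlap the other motif. The MYCN promoter held 1 match to TTTGGCGC and none to CACGTG, and the DDX1 promoter held neither. Of 35116 promoters of this length, 0.652% held TTTGGCGC and 7.26% held CACGTG. The search for TTTGGCGC was chosen after the MYCN sequence had been read.

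Libraries held 912095 to 1597429 counts in LAN-1 and 1102922 to 1666190 in Kelly. The smallest was the second LAN-1 library with GSK126 at day 5, and results that turn on it are given with and without it. All 6 adrenergic neuroblastoma markers had counts in both lines. Their summed level was 1768 to 2026 CPM in LAN-1 and 3560 to 5692 CPM in Kelly (CPM is the count per 1000000 counts of the scaled library total). Mesenchymal or Schwann cell markers, 5 of 6 with counts and S100B at 0, summed to 959.1 to 1374 CPM in LAN-1 and 209.0 to 517.9 CPM in Kelly. The 3 blood cell markers summed to at most 0.769 CPM in LAN-1 and were at 0 in Kelly. These marker levels differ between the lines as the genes below do, and their part in the line differences was not tested. In bulk RNA, fewer cells of a type and less RNA per cell cannot be told apart.

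DDX1 in LAN-1 and MYCN in Kelly were the highest of the 5 genes per kilobase. Levels of different genes are compared here in RPKM, CPM divided by the length in kilobases of all annotated exons of the gene merged. In LAN-1, DDX1 had a median level of 2225 RPKM over 8 libraries (range 1771 to 2361) and MYCN a median of 626 RPKM (593.8 to 701.1). In the same line NBAS stood at 10.8 RPKM (8.83 to 13.0), MYCNOS at 8.43 RPKM (5.65 to 9.37) and FAM49A at 1.2 RPKM (0.613 to 1.79). The ranges of NBAS and MYCNOS overlapped, and those of the other neighbours in this order did not. In Kelly, MYCN had a median level of 927 RPKM (686 to 1037) and DDX1 a median of 36.1 RPKM (33.6 to 40.9). MYCNOS followed at 16.7 RPKM (10.9 to 21.8), then NBAS at 6.14 RPKM (5.41 to 7.40) and FAM49A at 5.28 RPKM (3.44 to 9.28). The ranges of NBAS and FAM49A overlapped in Kelly, and those of the other neighbours in the order did not. Which ranges overlapped depended on the length used. Per kilobase of the canonical transcript, NBAS in Kelly (15.64 to 21.39) lay above FAM49A (4.017 to 10.83) and overlapped MYCNOS (17.47 to 34.97). By that length NBAS (25.52 to 37.48) and MYCNOS (9.082 to 15.06) did not overlap in LAN-1.

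Set against the 11703 tested genes that had a length, MYCN was in the top percent of levels in both lines, with a median percentile of 99.84 in LAN-1 and 99.91 in Kelly. DDX1 stood at a median percentile of 99.98 in LAN-1 and 91.19 in Kelly. NBAS stood at 64.61 in LAN-1 and 47.23 in Kelly. The order of the other genes was the other way round: MYCNOS had a median percentile of 57.11 in LAN-1 and 76.98 in Kelly, and FAM49A one of 12.96 in LAN-1 and 41.56 in Kelly. DDX1 had more reads than any other gene in all 8 LAN-1 libraries, where it took 1.79 to 2.34% of all counts, against 0.0338 to 0.0421% in Kelly. In LAN-1 with DMSO its mean was 22860 CPM, and the next gene, ACTB, the cytoplasmic actin, had 4029 CPM.

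The ratio of DDX1 to MYCN reads showed the same contrast. LAN-1 libraries held 9.28 to 14.4 DDX1 counts per MYCN count (median 13.1), and Kelly libraries 0.119 to 0.206 (median 0.149). Per kilobase of merged exons the ratio had a median of 3.55 in LAN-1 and 0.0407 in Kelly. It depended on the length used, as the merged exons of DDX1 sum to 10.1 kb and its canonical transcript to 2.48 kb. With the canonical transcripts the median was 13.7 in LAN-1 and 0.157 in Kelly. DDX1 was above MYCN in every LAN-1 library and below it in every Kelly library under each of the 3 lengths tried. MYCNOS gave 1.66 to 2.74 counts per 100 MYCN counts in LAN-1 and 2.87 to 3.94 in Kelly, ranges that did not overlap.

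**Figure D1:**
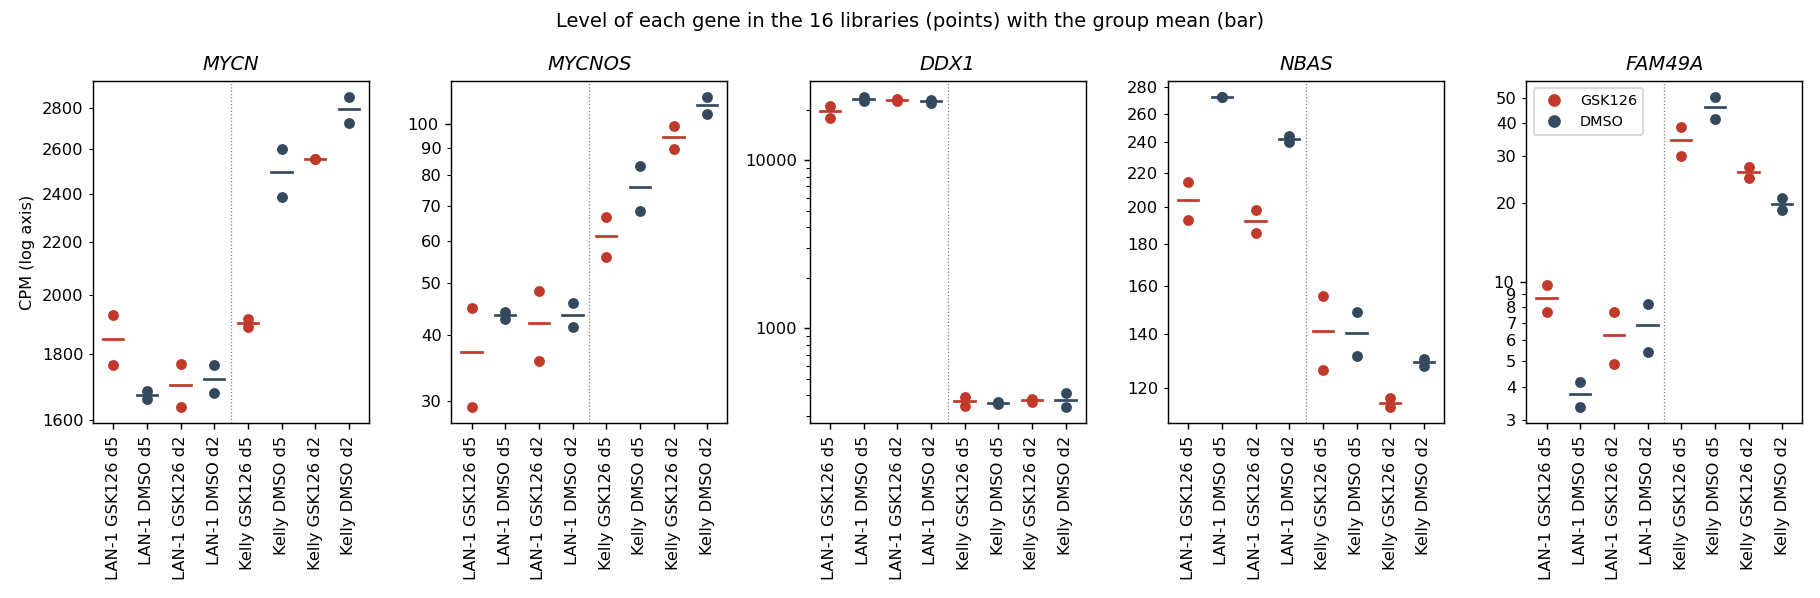
Level of each gene in CPM (log axis, a scale of its own in each panel) in the 16 libraries; points are libraries, bars are group means, red is GSK126 and dark blue is DMSO. DDX1 lies between 17930 and 23900 CPM in LAN-1 and between 339.9 and 414.5 CPM in Kelly, while MYCN lies between 1636 and 1932 CPM in LAN-1 and between 1890 and 2858 CPM in Kelly.

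In cells given DMSO, DDX1 and NBAS were higher in LAN-1 than in Kelly, and MYCN, MYCNOS and FAM49A were lower. All 5 genes passed the test, edgeR's quasi-likelihood test with Benjamini-Hochberg adjustment over all tested genes at 0.05. The background is high: 67.7% of all tested genes passed it between these lines, 33.5% higher and 34.2% lower in LAN-1, so the count of 5 is no result about these genes, and the sizes are what follows.

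DDX1 had 22640 and 23900 CPM in LAN-1 at day 5 and 21970 and 22930 CPM at day 2, against 357.7 and 365.1 CPM in Kelly at day 5 and 414.5 and 339.9 CPM at day 2. Every LAN-1 library was far above every Kelly library. The difference was 5.96 ± 0.07 on the log2 scale (SE; 4 libraries per line), a 62.1-fold higher level in LAN-1 (adjusted p = 3.04e-104). Of all tested genes, 168 had a higher log2 difference, and 158 of them had at most 3 counts in all Kelly DMSO libraries together. The highest Kelly level among the 168 was 1.73 CPM. Of the 2473 genes with at least 100 CPM in Kelly, DDX1 was the only one with a log2 difference above 3. The next of these was SPCS3, a subunit of the signal peptidase, at 2.53; it is named here after its value was seen.

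NBAS, the neighbour whose start lies close to that of DDX1 on the other strand, had 272.8 and 272.4 CPM in LAN-1 at day 5 and 243.9 and 240.4 CPM at day 2, against 131.6 and 148.7 CPM in Kelly at day 5 and 130.4 and 127.9 CPM at day 2. The lines did not overlap. NBAS was 1.91-fold higher in LAN-1 (log2 difference 0.93 ± 0.08, adjusted p = 2.98e-20), and 30.0% of all tested genes differed by at least as much in either direction. In LAN-1, NBAS had 0.804 to 1.21% of the counts of DDX1, against 30.6 to 40.7% in Kelly.

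MYCN itself had 1685 and 1660 CPM in LAN-1 at day 5 and 1764 and 1678 CPM at day 2, against 2387 and 2601 CPM in Kelly at day 5 and 2728 and 2858 CPM at day 2. All LAN-1 libraries were below all Kelly libraries. MYCN was 1.56-fold lower in LAN-1 (log2 difference -0.64 ± 0.05, adjusted p = 3.17e-20), a size reached by 44.3% of all tested genes. It was among the most abundant RNAs in both lines, at rank 18 to 24 by CPM in the LAN-1 libraries and 10 to 14 in the Kelly libraries.

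MYCNOS had 42.93 and 44.28 CPM in LAN-1 at day 5 and 41.38 and 45.91 CPM at day 2, against 68.41 and 83.41 CPM in Kelly at day 5 and 104.5 and 112.5 CPM at day 2. The lines did not overlap, and the log2 difference was -1.07 ± 0.12 (2.10-fold lower in LAN-1, adjusted p = 1.28e-13). Of all tested genes, 25.3% differed by at least as much. MYCNUT, another noncoding gene beside MYCN, was too low to be tested: it was at 0 in all 8 LAN-1 libraries and had 0 to 2 counts in each Kelly library.

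FAM49A had 4.154 and 3.342 CPM in LAN-1 at day 5 and 8.277 and 5.401 CPM at day 2, against 50.56 and 41.70 CPM in Kelly at day 5 and 18.76 and 20.90 CPM at day 2. Each Kelly library was above each LAN-1 library. FAM49A was 5.93-fold lower in LAN-1 (log2 difference -2.57 ± 0.26, adjusted p = 1.52e-16), and 8.94% of all tested genes differed by at least as much. Its LAN-1 values with DMSO rest on 6 and 4 counts at day 5 and 13 and 8 at day 2. Of these libraries, only the first at day 2 reached the level of the filter, 7.17 CPM. Over both treatments, LAN-1 libraries held 4 to 14 counts. That level was reached by 4 of the 8 LAN-1 libraries and all 8 Kelly libraries, and the filter asked for 2.

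**Figure D2:**
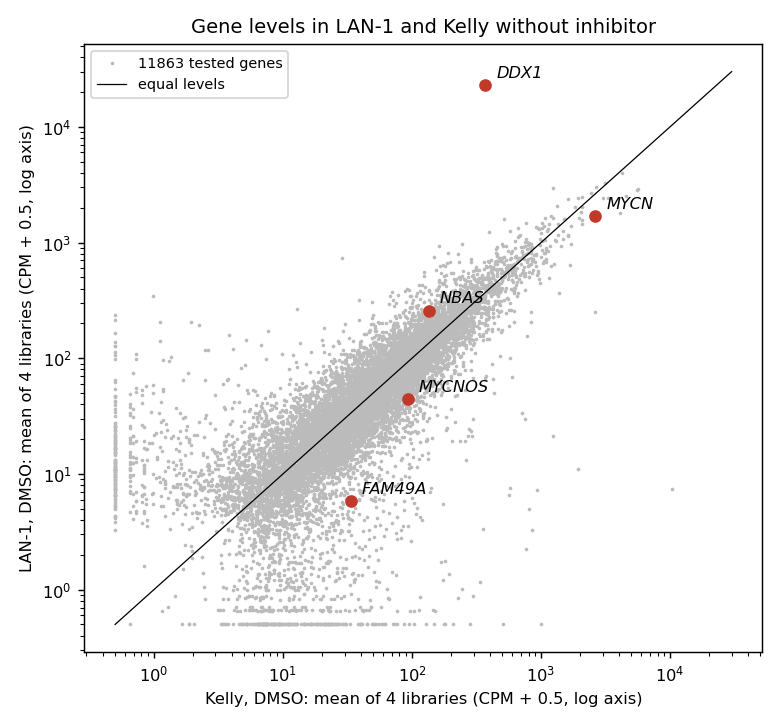
Mean level of each tested gene in 4 LAN-1 libraries (y axis) against 4 Kelly libraries (x axis), both with DMSO and in CPM + 0.5 on log axes; grey points are the 11863 tested genes and the line marks equal levels. DDX1, at 22860 CPM in LAN-1 and 369.3 CPM in Kelly, lies above all genes of like level in Kelly, and MYCN, at 1697 CPM in LAN-1 and 2643 CPM in Kelly, lies near the line.

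The libraries with GSK126, whose group means do not enter the DMSO contrast, gave the same 5 directions as the mean of both days. All 16 libraries share the estimate of spread and the scaling, so these tests are not fully independent of those with DMSO. All 5 genes again passed the test, against 66.3% of all genes. The log2 difference between LAN-1 and Kelly was 5.82 ± 0.07 for DDX1, 0.63 ± 0.09 for NBAS, -0.97 ± 0.14 for MYCNOS and -2.0 ± 0.24 for FAM49A. For MYCN it was -0.32 ± 0.06 (adjusted p = 3.11e-07), and here the lines overlapped: the highest LAN-1 library had 1932 CPM and the lowest Kelly library 1890 CPM, both at day 5. This MYCN value is a mean of days that differed. Its group means with GSK126 were 1702 CPM in LAN-1 and 2554 CPM in Kelly at day 2. At day 5 they were close, at 1849 CPM in LAN-1 and 1904 CPM in Kelly.

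Around MYCN, DDX1 and FAM49A were the tested genes with a difference of at least 4-fold between the lines, in opposite directions. Within 5 Mb of the MYCN start the table held 43 symbols, of which 22 were tested. Of these 22, 7 were higher in LAN-1, 10 were lower and 5 did not pass (77.3% called, beside 67.7% of all tested genes), with a median log2 difference of -0.13 beside -0.02 over all tested genes. The count at least 4-fold higher in LAN-1 was 1 and the count at least 4-fold lower was 1. The 17 genes other than the named 5 had a median of -0.12 and ran from -1.56 (VSNL1) to 1.70 (KCNS3).

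The nearest tested gene on the far side of NBAS was FAM84A, 1.31 Mb before MYCN, with 22.6 CPM in LAN-1 and 21.5 CPM in Kelly (log2 difference 0.09 ± 0.20, adjusted p = 0.703). On the far side of FAM49A it was VSNL1, a neuronal calcium sensor 1.64 Mb after MYCN, with 4.18 CPM in LAN-1 and 12.6 CPM in Kelly (-1.56 ± 0.33, adjusted p = 1.93e-05). Further out, KCNS3, a potassium channel subunit, was higher in LAN-1 by 1.70 ± 0.29, with 15.8 CPM in LAN-1 and 4.93 CPM in Kelly. C2orf43 (1.19 ± 0.11) and LPIN1, a phosphatidate phosphatase (0.67 ± 0.09), were also higher in LAN-1. RHOB, a small GTPase (-1.18 ± 0.13), and WDR35, a ciliary transport protein (-0.71 ± 0.12), were lower in LAN-1.

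**Figure D3:**
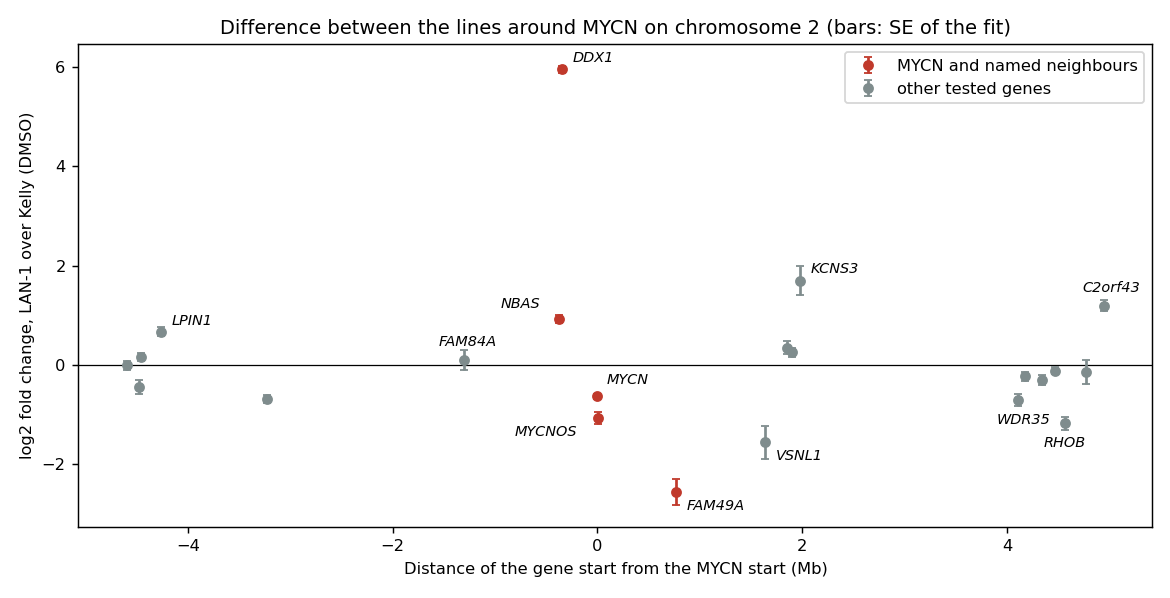
Log2 fold change of LAN-1 over Kelly with DMSO (y axis) for the 22 tested genes within 5 Mb of the MYCN start, by the distance of the gene start from it in Mb (x axis); bars are the SE of the fit, red points are MYCN and its 4 named neighbours. DDX1 stands at 5.96, and every other gene lies between -2.57 (FAM49A) and 1.70 (KCNS3).

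MYCN was lower with GSK126 in Kelly at day 5, and it did not pass the test in Kelly at day 2 or in LAN-1 at either day. Here and below, groups of 2 libraries can often fail to overlap without any effect. Overlap between such groups is therefore given as description only. In Kelly at day 5, MYCN had 1890 and 1918 CPM with GSK126 and 2387 and 2601 CPM with DMSO. The groups did not overlap, and the log2 difference was -0.39 ± 0.08 (1.31-fold lower with GSK126, adjusted p = 1.75e-04, n = 2 per group). MYCN was the 1 gene of the 5 that passed the test there, beside 4.9% of all genes. It also passed after any 1 of the 4 libraries was left out, with an adjusted p of at most 0.0437.

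In Kelly at day 2, MYCN had 2553 and 2555 CPM with GSK126 and 2728 and 2858 CPM with DMSO, groups that did not overlap, and the log2 difference was -0.13 ± 0.08 (adjusted p = 0.740). None of the 5 genes passed there, beside 0.185% of all genes. The test of the difference between the Kelly effects at day 5 and day 2 gave -0.26 ± 0.11 for MYCN (adjusted p = 0.506, with 0.379% of all genes called), so the effect is not shown to grow with time.

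In LAN-1 at day 5, MYCN had 1765 and 1932 CPM with GSK126 and 1685 and 1660 CPM with DMSO. The GSK126 libraries were the higher ones, and the log2 difference of 0.14 ± 0.08 did not pass (adjusted p = 0.361; 95% interval -0.01 to 0.30). At day 2 LAN-1 had 1636 and 1768 CPM with GSK126 and 1764 and 1678 CPM with DMSO, and the groups overlapped (log2 difference -0.02 ± 0.08, adjusted p = 1.00).

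The effect of GSK126 on MYCN differed between the lines. Taken as the mean of both days, it was higher in LAN-1 than in Kelly by 0.32 ± 0.08 on the log2 scale (adjusted p = 0.0122), where 1.2% of all genes passed and MYCN was the 1 that did of the 5. Without the second Kelly library with DMSO at day 5 the adjusted p was 0.0779. At day 5 alone, a test chosen after the MYCN values were seen, the difference was 0.53 ± 0.11 (adjusted p = 0.00114, beside 1.85% of all genes). This one passed after any of the 8 libraries was left out, with an adjusted p of at most 0.0361.

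MYCNOS did not pass for GSK126 in either line or day. In Kelly at day 5 it had 66.83 and 56.20 CPM with GSK126 and 68.41 and 83.41 CPM with DMSO. Both GSK126 libraries were below both DMSO libraries, and the log2 difference was -0.32 ± 0.17 (adjusted p = 0.340). At day 2 it had 89.47 and 98.98 CPM with GSK126 and 104.5 and 112.5 CPM with DMSO (-0.21 ± 0.14, adjusted p = 0.780). In LAN-1 at day 5 it had 29.22 and 44.92 CPM with GSK126 and 42.93 and 44.28 CPM with DMSO, and at day 2 35.69 and 48.45 CPM with GSK126 and 41.38 and 45.91 CPM with DMSO. The LAN-1 groups overlapped at both days.

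NBAS and DDX1 were lower with GSK126 in LAN-1 at day 5, the 2 of 5 genes that passed there, beside 3.66% of all genes. NBAS had 192.7 and 214.7 CPM with GSK126 and 272.8 and 272.4 CPM with DMSO, without overlap. The log2 difference was -0.43 ± 0.11 (1.35-fold lower with GSK126, adjusted p = 0.00916). Left-out libraries ended this call: the adjusted p was 0.0961 without the first and 0.0763 without the second DMSO library, and 0.113 without the first GSK126 library. Without the second GSK126 library it was 0.0167.

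At day 2 LAN-1 had 185.7 and 198.4 CPM of NBAS with GSK126 and 243.9 and 240.4 CPM with DMSO, again without overlap. The log2 difference was -0.33 ± 0.11, and it did not pass (adjusted p = 0.383; no gene of the 5 passed, beside 0.152% of all genes). In Kelly NBAS had 126.3 and 155.7 CPM with GSK126 and 131.6 and 148.7 CPM with DMSO at day 5, which overlapped (0.01 ± 0.12, adjusted p = 0.994). At day 2 Kelly had 113.8 and 116.7 CPM with GSK126 and 130.4 and 127.9 CPM with DMSO (-0.16 ± 0.13, adjusted p = 0.825).

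As the mean over both lines and days, NBAS fell by 0.23 ± 0.06 on the log2 scale with GSK126 (adjusted p = 0.00597, and 0.0592 with DESeq2), the 1 gene of the 5 that passed, beside 6.52% of all genes. MYCN had -0.10 ± 0.04 in that mean (adjusted p = 0.121), and without the second LAN-1 library with GSK126 at day 5 it passed, at -0.11 ± 0.03 (adjusted p = 0.0246). The NBAS effect was -0.30 ± 0.12 in LAN-1 minus Kelly, and this difference between the lines did not pass (adjusted p = 0.308).

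DDX1 in LAN-1 at day 5 had 21070 and 17930 CPM with GSK126 and 22640 and 23900 CPM with DMSO. Both GSK126 libraries were below both DMSO libraries, and the lower was the smallest library of the study. The log2 difference was -0.25 ± 0.08 (1.19-fold lower with GSK126, adjusted p = 0.0415). Without that library it was -0.13 ± 0.07 (adjusted p = 0.566), and without the other GSK126 library it was -0.38 (adjusted p = 2.91e-04). Without the first or the second DMSO library the adjusted p was 0.118 and 0.303. DESeq2 gave an adjusted p of 0.0821.

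In LAN-1 at day 2 DDX1 had 23090 and 22400 CPM with GSK126 and 21970 and 22930 CPM with DMSO, which overlapped (0.02 ± 0.08, 95% interval -0.13 to 0.17). In Kelly it had 343.9 and 394.1 CPM with GSK126 and 357.7 and 365.1 CPM with DMSO at day 5, and 367.0 and 381.3 CPM with GSK126 and 414.5 and 339.9 CPM with DMSO at day 2. The groups overlapped at both days, with log2 differences of 0.03 ± 0.10 at day 5 and -0.00 ± 0.10 at day 2. The line difference in DDX1 was thus far larger than any difference between treatments.

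FAM49A in LAN-1 at day 5 had 9.738 and 7.669 CPM with GSK126 and 4.154 and 3.342 CPM with DMSO. The groups did not overlap, but they rest on 14 and 7 counts with GSK126 and 6 and 4 with DMSO, and the log2 difference of 1.24 ± 0.54 did not pass (adjusted p = 0.204). At day 2 LAN-1 had 4.866 and 7.690 CPM with GSK126 and 8.277 and 5.401 CPM with DMSO, which overlapped. In Kelly at day 5 FAM49A had 30.15 and 38.73 CPM with GSK126 and 50.56 and 41.70 CPM with DMSO, and the GSK126 libraries were the lower ones (-0.40 ± 0.21, adjusted p = 0.332). At day 2 the GSK126 libraries were the higher ones, at 27.39 and 24.74 CPM with GSK126 and 18.76 and 20.90 CPM with DMSO (0.38 ± 0.26, adjusted p = 0.781).

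**Figure D4:**
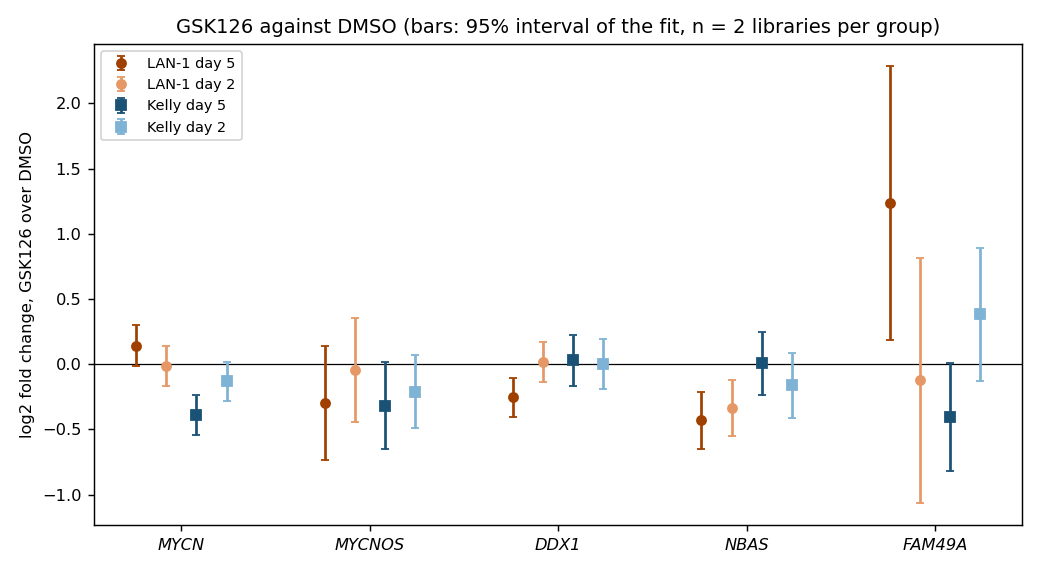
Log2 fold change of GSK126 over DMSO (y axis) for each of the 5 genes (x axis) in LAN-1 and Kelly at day 5 and day 2; bars are 95% intervals of the fit with 2 libraries per group. MYCN lies at -0.39 in Kelly at day 5 and at 0.14 in LAN-1 at day 5, NBAS lies at -0.43 in LAN-1 at day 5, and the bars of FAM49A in LAN-1 are the widest.

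Without inhibitor, FAM49A was higher at day 5 than at day 2 in Kelly. It had 50.56 and 41.70 CPM at day 5 and 18.76 and 20.90 CPM at day 2, without overlap, a 2.29-fold higher level at day 5 (log2 difference 1.19 ± 0.23, adjusted p = 0.00119). It was the 1 gene of the 5 that passed, beside 0.43% of all genes, and without the first DMSO library at day 5 the adjusted p was 0.165. This comparison and that of GSK126 with DMSO at each day share DMSO libraries. MYCNOS in Kelly had 68.41 and 83.41 CPM at day 5 and 104.5 and 112.5 CPM at day 2, and did not pass (-0.51 ± 0.15, adjusted p = 0.110).

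In LAN-1 with DMSO, none of the 5 genes passed between the days, beside 0.438% of all genes. FAM49A had 4.154 and 3.342 CPM at day 5 and 8.277 and 5.401 CPM at day 2, with both day 5 libraries below both day 2 libraries (-0.86 ± 0.54, adjusted p = 0.813). The difference between this and the Kelly change was -2.06 ± 0.58, in a test chosen after the FAM49A values were seen, and did not pass (adjusted p = 0.268, with 0.0253% of all genes called).

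The shares of partner genes that passed between the lines are read against the 67.7% of all genes that passed (33.5% higher, 34.2% lower in LAN-1), and several are near it. Of the 5 tested partners of DDX1 in the tRNA ligase complex, 1 was higher and 2 were lower in LAN-1 with DMSO (median log2 difference -0.18). C2orf49, known as ashwin, was higher (1.54 ± 0.17) and FAM98A was lower (-0.59 ± 0.11). Of 6 partners of NBAS in vesicle tethering, 2 were higher and 3 lower (median -0.16), with RINT1 at 1.02 ± 0.17 and STX18, a syntaxin of the endoplasmic reticulum, at 0.73 ± 0.22. Of 6 genes of the RAC1 and WAVE pathway of FAM49A, 3 were lower and none higher (median -0.13), among them CYFIP2 (-1.0 ± 0.11) and CYFIP1 (-0.24 ± 0.09), subunits of the WAVE complex.

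Beside the same 67.7% of all genes, of 10 tested members of the MAX network, which pair with MAX or its relative MLX, 5 were higher and 1 was lower in LAN-1 with DMSO (median 0.37). MXD4, a repressor that competes with MYC proteins for MAX, was 3.77-fold higher (1.92 ± 0.15) and MLX was lower (-1.08 ± 0.15). Of 9 genes for stability and turnover of the MYCN protein, 5 were higher and 1 lower (median 0.31), with the mitotic kinases PLK1 at 0.89 ± 0.08 and AURKA, which shields MYCN from degradation, at 0.73 ± 0.09. Of 28 tested targets of MYCN and MYC, 13 were higher and 9 lower in LAN-1 (median 0.13), with lactate dehydrogenase LDHA at 1.01 ± 0.06 and the chaperone HSPD1 at 0.94 ± 0.06. Of 8 adrenergic factors that bind enhancers of MYCN, 3 were higher and 4 lower (median -0.33). LMO1, a cofactor of such factors, averaged 0.346 CPM in LAN-1 at day 5 and 1.31 CPM at day 2, against 38.8 CPM in Kelly at day 5 and 42.7 CPM at day 2. The median over all tested genes was -0.02.

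In Kelly at day 5, where MYCN fell with GSK126, 3 of the 8 adrenergic factors fell and 1 rose, beside 1.6% of all genes that fell and 3.3% that rose. HAND2 had 596.7 ± 0.23 CPM with GSK126 and 949.5 ± 77.8 CPM with DMSO (SD, n = 2 each; log2 difference -0.67 ± 0.09, adjusted p = 7.42e-10). TBX2 rose (0.38 ± 0.10). Of the 28 targets 4 fell and none rose (median -0.24, beside 0.01 over all genes), among them NOLC1, a nucleolar protein (-0.38 ± 0.09), and LDHA (-0.37 ± 0.10). PLK1 was the 1 of 9 turnover genes that fell (-0.44 ± 0.13), and none of the 10 MAX network genes passed.

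In LAN-1 at day 5, where MYCN did not pass, none of the 8 adrenergic factors fell and 1, PHOX2A, rose (0.56 ± 0.13, adjusted p = 0.00481), beside 1.21% of all genes that fell and 2.45% that rose. HAND2 had 502.2 ± 33.5 CPM with GSK126 and 539.0 ± 3.41 CPM with DMSO (-0.11 ± 0.09, adjusted p = 0.612). Of the 28 targets 2 fell and none rose (median -0.08). EZH2, the enzyme GSK126 blocks, had 104.1 ± 6.23 CPM with GSK126 and 130.6 ± 5.53 CPM with DMSO in LAN-1, and 179.3 ± 2.28 CPM with GSK126 and 218.7 ± 18.7 CPM with DMSO in Kelly. It did not pass in either line at that day (adjusted p = 0.211 in LAN-1 and 0.148 in Kelly).

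The genes most like MYCN across the 16 libraries were MCM5 (Pearson r = 0.954), FARP1 (0.895) and CDT1 (0.892), out of 7149 genes with at least 20 CPM on average in each line, after the mean of each line was taken off the log2 CPM. For DDX1 they were SMARCA5 (0.919), SKA2 (0.908) and BTF3L4 (0.904). These values describe 16 libraries that share treatments, days and depth.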

How the data were processed

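RNA-seq of LAN-1 and Kelly cells was read from the deposited table of whole-read counts, 1 column per library, with no normalization. Per the submitters' processing notes, the authors used FastQC, TopHat2 and featureCounts with GRCh37 (hg19); versions, strand setting, annotation and the handling of shared reads are not given there. The 16 libraries were grouped by the line, treatment and day in their labels. Of 25728 symbols, 11863 passed filterByExpr with its minimum count set to 10, and TMM scaled the libraries. One robust quasi-likelihood model of edgeR 4.0.16 in R 4.3.3, with a mean for each of 8 groups, left 8 residual degrees of freedom. P-values were adjusted by Benjamini-Hochberg over all tested genes and called under 0.05. SEs come from that model. CPM is the count per 1000000 counts of the TMM-scaled total.

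Positions and exon lengths came from GENCODE lifted to GRCh37: 21873 symbols matched directly, 1430 by synonym and 2425 not at all. The 5 genes, the lists of partner genes and the rule for named genes (list members with the smallest adjusted p, window genes with the largest changes, the 3 likeliest genes) were chosen with earlier results of these data known. The model was also run on simulated counts with the same spread for all genes. That is simpler than these data, so the run does not vouch for the calls here. Alternatives were DESeq2 1.42.0, RLE or upper-quartile factors, no filter, only the libraries compared, a replicate block, other lengths and windows, each library left out, and, chosen after seeing the data, totals without DDX1, the canonical transcript and 3 tests of differences. The 95% intervals come from the model's SE. Library totals of 912095 to 1666190 counts limit the precision of genes as low as FAM49A. Some list members that the rule would name are not reported here.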

Additional observations from a re-analysis of the deposited data

Results flagged for a closer look

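The effect of GSK126 on MYCN differed between LAN-1 and Kelly by a test of the difference itself. As the mean of both days the effect was higher in LAN-1 by 0.32 ± 0.08 on the log2 scale (edgeR, adjusted p = 0.0122; 15 of 16 fits with 1 library left out passed). At day 5 alone, in a test chosen after the MYCN values were seen, it was higher in LAN-1 by 0.53 ± 0.11 (adjusted p = 0.00114).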

How the results depend on the processing

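The direction and call of all 5 genes between LAN-1 and Kelly held under every alternative that was run, with GSK126 and with DMSO. In LAN-1 at day 5, where 2 of the 5 genes passed for GSK126, 0 passed with DESeq2, and 1 passed with RLE factors, with totals without DDX1, with the replicate block and with only the libraries compared; 0 to 1 passed with a library left out. For the mean over lines and days, where 1 passed, 0 passed with DESeq2 and 1 to 2 with a library left out. With a library left out, 0 to 1 passed for the line difference in the GSK126 effect and for day 5 against day 2 in Kelly. DESeq2 gave no adjusted p for FAM49A and MYCNOS in Kelly between the days. It gave none for FAM49A with GSK126 in LAN-1 at day 5, so the 0 there leaves this gene out. FAM49A also had none in the difference between the Kelly effects of GSK126 at day 5 and day 2. DDX1 over MYCN per kilobase, with DMSO, was 3.67 in LAN-1 and 0.0382 in Kelly with merged exons, 6.51 in LAN-1 and 0.0677 in Kelly with the longest transcript, and 14.2 in LAN-1 and 0.147 in Kelly with the canonical one. A window of 10 Mb held 2 genes at least 4-fold lower in LAN-1, against 1 within 5 Mb.

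Signs turned only for values that did not pass, most of them near 0; the largest was MYCNOS for GSK126 in LAN-1 at day 5, at -0.30. DDX1 in Kelly at day 2 was 0.0123 with upper-quartile factors; without a filter, NBAS and DDX1 in Kelly at day 5 were -0.0249 and -2.2e-04. MYCNOS in LAN-1 between the days was 0.0126 with DESeq2, 0.0128 with RLE factors, 8.1e-04 with upper-quartile factors, 0.00873 without a filter, 0.00797 with totals without DDX1, 0.0071 with the replicate block and 2.5e-04 with only the libraries compared. With a library left out, the ranges that crossed 0 for GSK126 were -0.15 to 0.14 for DDX1 in Kelly at day 2 and -0.08 to 0.13 at day 5, -0.0157 to 0.0514 for DDX1, -0.50 to 0.22 for FAM49A, -0.0755 to 0.0428 for MYCN and -0.29 to 0.16 for MYCNOS in LAN-1 at day 2, -0.559 to 0.0419 for MYCNOS in LAN-1 at day 5, -0.16 to 0.15 for NBAS in Kelly at day 5, and -0.0292 to 0.265 for MYCNOS in the difference between lines. Between the days they were -0.198 to 0.0901 for DDX1 in Kelly and -0.0786 to 0.0814 for MYCNOS in LAN-1.

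Over all genes DESeq2 called fewer for GSK126 than edgeR: 163 against 581 in Kelly at day 5, 3 against 22 at day 2, 151 against 434 in LAN-1 at day 5, 2 against 18 at day 2, 289 against 773 in the mean and 36 against 142 between lines (day 5 alone: 59 against 219). Between the days in DMSO it called 15 against 51 in Kelly and 19 against 52 in LAN-1. With a library left out, edgeR called 239 to 355 in Kelly and 139 to 734 in LAN-1 at day 5, and 2 to 11 and 3 to 14 at day 2. Replicate numbers gave no sign of pairing the libraries: deviations of same-numbered libraries correlated between -0.0876 and 0.0671 within a line and between -0.0632 and 0.103 across lines. At this depth counting noise could hide a pairing, so it is not excluded. With the replicate block 8 genes passed in Kelly at day 2, against 22 without it. The causes of these changes were not tested.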
